A study of Mus musculus with 24 samples.

Results

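A set of 9 genes with roles in glucose entry, glycolysis and glycogen storage was followed in mouse liver. They are Gckr, Pfkfb1, Pfkfb3, Pklr, Slc2a2, Gys2, Pygl, Ppp1r3b and Ppp1r3c, and they were taken by name from the array, with every non-control probe that carries the name. These were 9 of the 21330 genes tested and 11 of 56605 probes, and all 9 passed the filter on dim probes. Liver RNA came from 24 male C57Bl/6J mice, 1 single-colour array per mouse, in 4 groups of 6. LWT mice have PPARα in hepatocytes and LKO mice do not, as the series title is read here. Each genotype received by gavage at Zeitgeber time 10 h either CL316243 at 3 mg/kg, which activates beta3 adrenergic receptors and is labelled Beta3, or the vehicle, 0.5% carboxymethyl cellulose. All mice ate a standard diet freely, and livers were taken at Zeitgeber time 16 h, in the dark phase. The ages of the mice, the deleted part of Ppara and the driver of the deletion are not given in the sources used here.

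Glucose crosses the hepatocyte membrane through GLUT2, the product of Slc2a2, and is trapped there as glucose 6-phosphate, a step that the Gckr protein restrains at low glucose. Glycolytic flux is then set by fructose 2,6-bisphosphate, made and removed by the bifunctional enzymes of the Pfkfb genes, and by pyruvate kinase, whose liver form comes from Pklr. Glycogen is built by glycogen synthase (Gys2 in liver) and broken down by glycogen phosphorylase (Pygl), and the Ppp1r3 proteins bring protein phosphatase 1 to glycogen, where it activates the synthase.

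Values are log2 signals relative to the 75th percentile of the same array, so 0 is that percentile and a step of 1 is a doubling. They are compared between groups for one probe and not between probes. A gene was called when the limma test across all genes gave an adjusted p under 0.05 (Benjamini-Hochberg), and an SE follows each difference in parentheses. Nothing in the labels says more about the separateness of the samples than that there were 6 mice per condition. In whole liver, fewer cells of a type and less RNA per cell cannot be told apart.

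Pfkfb1 and Pfkfb3 were read by 2 probes each, and the 60-base sequences of the probes that lie inward in their transcripts are shown because they decide which part of each transcript was measured (array annotation, build mm9, 5′ to 3′). The second Pfkfb1 probe starts at base 586 of the transcript (chrX:147056628-147056687, plus strand), against base 1637 for the brighter probe (chrX:147078320-147078379). The second Pfkfb3 probe starts at base 1426 and its 60 bases span 1414 bases of genome (chr2:11404189-11405602, minus strand), so it crosses a splice junction, while the brighter probe starts at base 4437 (chr2:11393579-11393638). The Pklr probe (chr3:88948907-88949425, plus strand, base 1636) and the Slc2a2 probe (chr3:28625253-28625961, plus strand, base 1279) cross junctions too, over 519 and 709 bases of genome.
Pfkfb1 second probe: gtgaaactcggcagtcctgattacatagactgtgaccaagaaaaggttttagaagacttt
Pfkfb3 second probe: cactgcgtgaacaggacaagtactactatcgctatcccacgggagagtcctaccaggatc
Pklr probe: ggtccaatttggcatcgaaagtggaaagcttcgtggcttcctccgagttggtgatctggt
Slc2a2 probe: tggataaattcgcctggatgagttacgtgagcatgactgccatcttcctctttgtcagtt

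The other 5 genes had 1 probe each, on a single stretch of genome. They lie at chr5:31629583-31629642 (Gckr, plus strand), chr6:142371157-142371216 (Gys2, minus), chr12:71291855-71291914 (Pygl, minus), chr8:36451115-36451174 (Ppp1r3b, plus) and chr19:36806457-36806516 (Ppp1r3c, minus).

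Signal and cell makeup set the frame for these values. Between 47.7% and 60.4% of probes lay well above background per array, and no spot was saturated. Every group had 2 mice on each of the 3 slides. Ppara itself was lower in LKO by -0.67 under vehicle (adjusted p = 0.161) and by -1.91 under CL316243 (adjusted p = 3.43e-07). Its second probe gave -0.92 and -2.09 (limma over all kept probes, adjusted p = 0.0196 and 5.71e-08), but the probes may lie outside the deleted part and then check nothing. Hepatocyte markers summed to overlapping levels in the 4 groups (medians 4070 to 4390 times the 75th percentile), and 0 of 6 were called by limma in LWT (1 at an unadjusted p under 0.05) and 1 of 6, Apoa1, in LKO. Of the Kupffer cell markers, 0 of 6 were called by limma in either genotype (0 at an unadjusted p under 0.05). Summed cholangiocyte markers ranged, in LWT, from 0.87 to 1.83 under vehicle and from 1.38 to 4.27 with CL316243. In LKO the sums ranged from 0.96 to 1.80 and from 2.03 to 8.37, with 1 of 4 markers, Sox9, called in both genotypes (1.47 and 2.18). Krt19, Krt7 and Epcam were not called, at -0.527, -0.016 and -0.065 in LWT and 0.244, -0.23 and 0.763 in LKO. Of 5 endothelial markers 2 were higher in LWT, and 1 was higher and 1 lower in LKO, with Lyve1 rising in both (1.19 and 2.39). Of 5 stellate markers 1 was higher and 1 lower in LWT and 0 were called in LKO by limma (2 at an unadjusted p under 0.05). Of 3 tested adipocyte markers 1 fell in both genotypes, Adrb3, the beta3 receptor (-2.10 and -1.92), and Adipoq did not pass the filter. Of 3 tested muscle markers 1 fell in both, and of 4 pancreas markers 1 passed the filter and fell, while Ins2 was well above background on 0 arrays. Of 4 blood markers 0 were called in LWT by limma (1 at an unadjusted p under 0.05) and 2 fell in LKO. Blood marker sums had medians of 335 and 265 in LWT and 376 and 300 in LKO, vehicle first. Beside these marker counts, 38.2% of all genes were called in LWT and 40.2% in LKO. The part of the marker shifts in the differences below was not tested. Over all genes, LKO CL316243 replicate 3 stood apart, with a root mean square deviation from its group mean of 0.60 against 0.40 for the next mouse, while LWT CL316243 replicate 3 (0.41) was close to the next (0.39). Among the 9 genes, however, that LWT mouse was the lowest of its group for 7 and the LKO mouse for 6, so results are also given without both, a choice made after seeing the data.

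CL316243 in LWT livers changed 6 of the 9 genes, 5 lower and 1 higher, where 38.2% of all genes were called (19.1% higher and 19.1% lower). Ppp1r3c fell most in this set, and Pfkfb1, Slc2a2 and Ppp1r3b fell less, while Gys2 rose a little. In LKO livers 4 were called, all lower (Pfkfb1, Slc2a2, Ppp1r3b and Ppp1r3c), where 40.2% of all genes were called (20.7% higher and 19.4% lower). The median difference of the 9 was -0.61 in LWT and -0.33 in LKO, against 0.012 and 0.025 over all genes tested. In 4 of the 9 genes the LWT groups did not overlap, and in 1 of the 9 the LKO groups did not, beside 20.3% and 20.8% of all genes.

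**Figure D1:**
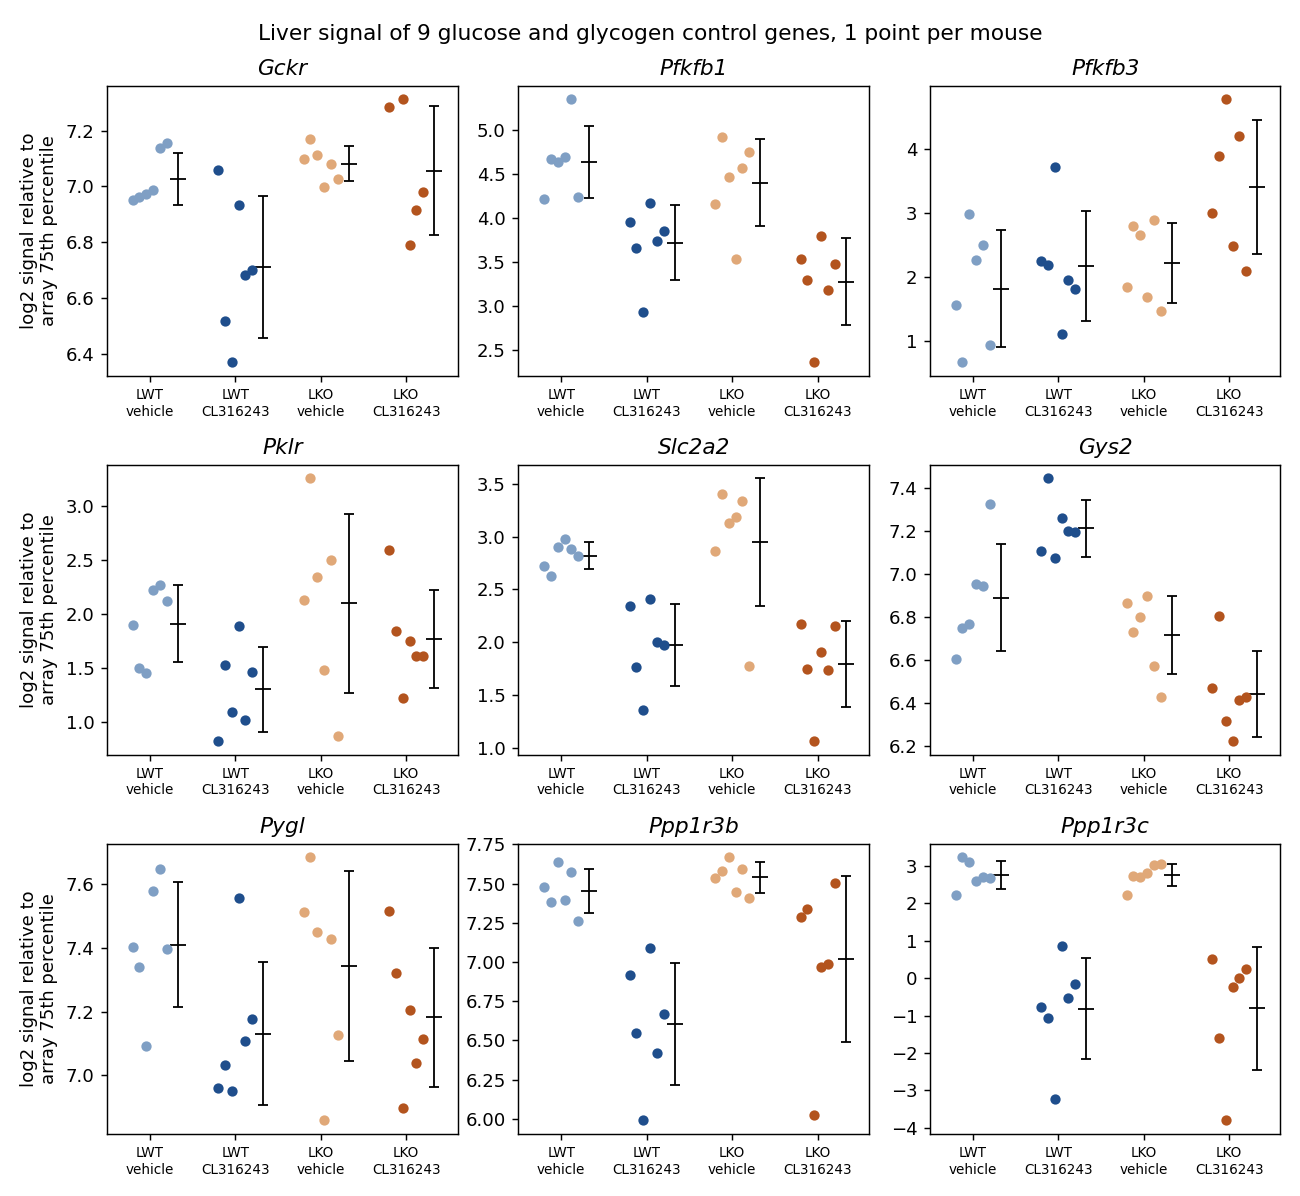
Each panel plots the log2 signal of 1 gene relative to the array's 75th percentile (vertical axis, a separate scale per panel) for the 6 mice of each of 4 groups, in order of replicate number, with the group mean and SD as a black bar; Gckr has 5 LKO CL316243 mice. Every CL316243 mouse lies below every vehicle mouse for Ppp1r3c in both genotypes, and the highest LKO CL316243 mouse for Gys2 (6.81) lies below the lowest LWT CL316243 mouse (7.07).

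Glucose entry and phosphorylation were examined first. Slc2a2 lay between 2.62 and 2.97 in LWT vehicle livers (median 2.85) and between 1.35 and 2.41 in LWT CL316243 livers (median 1.99). All 6 treated mice were below all 6 vehicle mice. The fall was -0.85 (SE 0.23, adjusted p = 0.00606), or 1.80-fold. In LKO, Slc2a2 lay between 1.78 and 3.40 under vehicle (median 3.16) and between 1.06 and 2.17 with CL316243 (median 1.83). Vehicle replicate 6 (1.78) sat among the treated mice, and the other vehicle mice, from 2.86 up, lay above all of them. The fall was -1.15 (SE 0.23, adjusted p = 0.000437), or 2.23-fold. The effects differed by -0.31 (95% interval -0.99 to 0.37, adjusted p = 0.693), so a difference between genotypes was not called. Within slides 1, 2 and 3 the LWT difference was -0.67, -1.11 and -0.76 and the LKO difference -1.05, -0.97 and -1.44.

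Gckr, which restrains glucose phosphorylation, lay between 6.95 and 7.16 in LWT vehicle (median 6.98) and between 6.37 and 7.06 in LWT CL316243 (median 6.69). The groups overlapped, with 5 of 6 treated mice below the vehicle mean. The fall of -0.32 (SE 0.10, adjusted p = 0.0191) was lost without LWT CL316243 replicate 2 (-0.28, adjusted p = 0.0504) or replicate 3 (-0.25, adjusted p = 0.0568). Within slides 1, 2 and 3 it was -0.25, -0.51 and -0.19, not called. With quantile normalization it was -0.40 (adjusted p = 0.000602), and in the authors' values -0.41 (adjusted p = 0.000328). LKO mice lay between 6.999 and 7.171 under vehicle (median 7.09) and between 6.79 and 7.31 with CL316243 (median 6.98, n = 5, since the spot of replicate 2 was an outlier and was dropped). The LKO difference was -0.03 (SE 0.11, adjusted p = 0.874), and the difference between the effects, 0.29 (95% interval -0.02 to 0.61, adjusted p = 0.317), was not called.

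The bifunctional enzymes came next. Pfkfb1, the main liver form, lay between 4.21 and 5.35 in LWT vehicle (median 4.65) and between 2.94 and 4.17 in LWT CL316243 (median 3.79). The groups did not overlap, and the fall was -0.91 (SE 0.25, adjusted p = 0.00642), or 1.88-fold. LKO mice lay between 3.54 and 4.92 under vehicle (median 4.52) and between 2.36 and 3.79 with CL316243 (median 3.39). Only vehicle replicate 4 (3.54) lay within the range of the treated mice, and the fall was -1.12 (SE 0.25, adjusted p = 0.00122), or 2.18-fold. The inward probe gave -0.85 in LWT and -1.47 in LKO. For both, the two-sided exact permutation test gave p = 0.00216, the smallest p that 6 against 6 mice allow. Adjusted over 12 tests, those of the second Ppara probe included, this p was 0.00648. For the brighter probe the effects did not differ by test (-0.21, 95% interval -0.95 to 0.53, adjusted p = 0.826). For the inward probe they differed by -0.62 (95% interval -1.245 to 0.006), not called by limma over all kept probes (adjusted p = 0.268). By slide, the brighter probe's LWT difference ran from -1.17 to -0.43 and its LKO difference from -1.77 to -0.56.

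Pfkfb3, an inducible form with strong kinase activity, spread widely. It lay between 0.66 and 2.99 in LWT vehicle (median 1.91) and between 1.11 and 3.72 in LWT CL316243 (median 2.07). Those ranges overlapped almost fully, and the difference of 0.35 (SE 0.48, adjusted p = 0.603) was not called. In LKO it lay between 1.46 and 2.89 under vehicle (median 2.25) and between 2.09 and 4.78 with CL316243 (median 3.44). The 4 highest LKO CL316243 mice were above all LKO vehicle mice, and the difference of 1.19 (SE 0.48, adjusted p = 0.0539) just missed the threshold. It passed without any of 7 single mice (adjusted p 0.0205 to 0.0494) and was 0.91 (adjusted p = 0.105) without both CL316243 mice numbered 3. It also passed with another background correction (1.13, adjusted p = 0.0483) and with only probes well above background on all 24 arrays (adjusted p = 0.0456). The inward probe was well above background on 2, 1, 1 and 4 of 6 arrays (LWT vehicle, LWT CL316243, LKO vehicle, LKO CL316243) and gave 0.39 and 0.94 (exact permutation p = 0.459 and 0.177, two-sided).

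Pklr, liver pyruvate kinase, lay between 1.45 and 2.27 in LWT vehicle (median 2.01) and between 0.82 and 1.89 in LWT CL316243 (median 1.28). LKO mice lay between 0.87 and 3.26 under vehicle (median 2.24) and between 1.22 and 2.59 with CL316243 (median 1.68). Both pairs of groups overlapped, with LKO vehicle replicate 6 the lowest and replicate 2 the highest of their group. The differences were -0.61 (SE 0.30, adjusted p = 0.116) and -0.33 (SE 0.30, adjusted p = 0.409), neither called, although the LWT one passed in a fit on the 12 LWT mice alone (adjusted p = 0.0315).

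The targeting subunits Ppp1r3c and Ppp1r3b were next. Ppp1r3c lay between 2.23 and 3.24 in LWT vehicle (median 2.70) and between -3.22 and 0.86 in LWT CL316243 (median -0.65). In LKO it lay between 2.22 and 3.05 under vehicle (median 2.78) and between -3.81 and 0.53 with CL316243 (median -0.11). No treated mouse reached a vehicle mouse in either genotype, and the mice numbered 3 were the lowest of both treated groups. The falls were -3.58 (SE 0.60, adjusted p = 6.66e-05) and -3.57 (SE 0.60, adjusted p = 7.16e-05), each 11.9-fold. LKO CL316243 replicate 3 was not well above background, while 5 of 6 arrays of that group were. Its value was kept, so the LKO fall and its SE rest on all 6 mice. Without both mice numbered 3 the falls were -3.10 and -2.97 (adjusted p = 4.38e-07 and 1.49e-06). The difference between the effects was 0.01 with a 95% interval from -1.75 to 1.77 (adjusted p = 0.998), which does not show that the effects were alike. By slide, the LWT fall was -2.54, -4.88 and -3.31 and the LKO fall -5.58, -2.10 and -3.03.

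Ppp1r3b, the targeting subunit known as GL, lay between 7.26 and 7.64 in LWT vehicle (median 7.43) and between 5.99 and 7.09 in LWT CL316243 (median 6.61). The groups did not overlap, and the fall was -0.85 (SE 0.19, adjusted p = 0.00114), or 1.80-fold. LKO mice lay between 7.41 and 7.67 under vehicle (median 7.56) and between 6.02 and 7.51 with CL316243 (median 7.14). Replicate 3 (6.02) lay far below the other treated mice, of which the lowest was 6.97, and the ranges of the groups met at their ends. The LKO fall was -0.52 (SE 0.19, adjusted p = 0.0316). It was lost without LKO CL316243 replicate 3 (-0.32, adjusted p = 0.0836), without replicate 5 (adjusted p = 0.0508) and without LKO vehicle replicate 2, 3 or 5 (adjusted p 0.0518 to 0.0585). It was also lost with no filter on dim probes (adjusted p = 0.0619) and in the 12 LKO mice alone (adjusted p = 0.0661), and it was called without both mice numbered 3 (adjusted p = 0.0316). The interaction was 0.33 (95% interval -0.23 to 0.88, adjusted p = 0.582).

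Glycogen synthase and phosphorylase followed. Gys2 lay between 6.61 and 7.33 in LWT vehicle (median 6.86) and between 7.07 and 7.45 in LWT CL316243 (median 7.20). The groups overlapped through vehicle replicate 6, the highest vehicle mouse. The rise of 0.32 (SE 0.11, adjusted p = 0.0269), or 1.25-fold, was lost without LWT vehicle replicate 1, 2 or 3 or LWT CL316243 replicate 2 (0.27 to 0.30, adjusted p 0.0551 to 0.0753). It was also lost with no filter on dim probes (adjusted p = 0.0581), with quantile normalization (0.25, adjusted p = 0.0718) and in the authors' values (0.24, adjusted p = 0.0681). In LKO, Gys2 lay between 6.43 and 6.90 under vehicle (median 6.77) and between 6.22 and 6.81 with CL316243 (median 6.42). The ranges overlapped, and the difference of -0.27 (SE 0.11, adjusted p = 0.0579) was not called. It was called with quantile normalization (-0.31, adjusted p = 0.0239) and in the authors' values (-0.33, adjusted p = 0.0139). So was it with another background correction (adjusted p = 0.0408) and with only probes well above background on all 24 arrays (adjusted p = 0.0492). Leaving out any of 3 single mice did the same (adjusted p 0.0167 to 0.0322).

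Pygl lay between 7.09 and 7.65 in LWT vehicle (median 7.40) and between 6.95 and 7.56 in LWT CL316243 (median 7.07). In LKO it lay between 6.86 and 7.68 under vehicle (median 7.44) and between 6.90 and 7.52 with CL316243 (median 7.16). The groups overlapped broadly, and the differences of -0.28 (SE 0.14, adjusted p = 0.11) and -0.16 (SE 0.14, adjusted p = 0.362) were not called. The LWT difference passed with quantile normalization (-0.36, adjusted p = 0.0415) and without LWT CL316243 replicate 4 (adjusted p = 0.031).

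**Figure D2:**
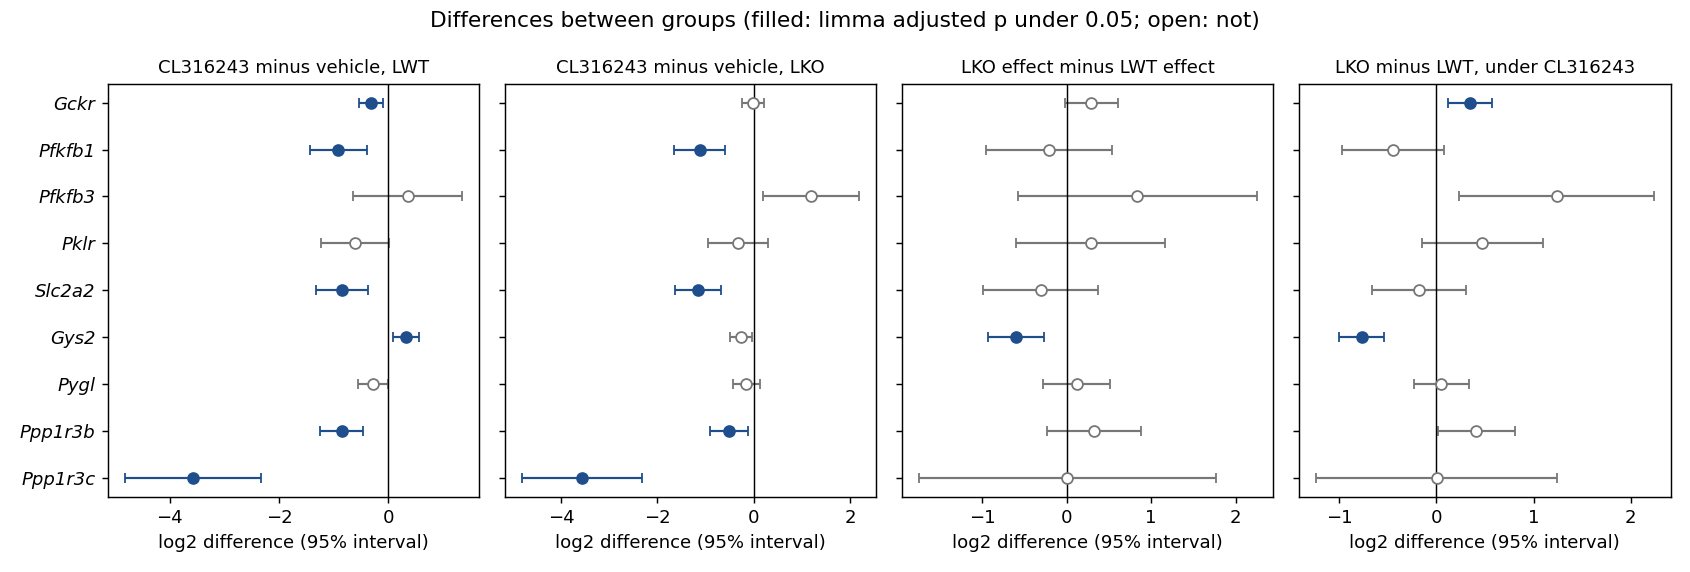
The panels plot, for each of the 9 genes, the log2 difference with its 95% interval for CL316243 minus vehicle in either genotype, for the LKO effect minus the LWT effect, and for LKO minus LWT under CL316243; filled points passed the limma test and each panel has its own horizontal scale. Gys2 is the one filled point in the panel of the difference between effects (-0.60), and Ppp1r3c has the widest interval there (-1.75 to 1.77).

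Whether the CL316243 effect depended on hepatocyte PPARα was tested as the LKO effect minus the LWT effect. It was called for 1 of the 9 genes, Gys2, where 5.4% of all genes were called (2.06% higher and 3.34% lower). The Gys2 effect was lower in LKO by -0.60 (SE 0.16, 95% interval -0.93 to -0.27, adjusted p = 0.0285). That call was lost without LWT vehicle replicate 1 (-0.54, adjusted p = 0.0546), LWT CL316243 replicate 2 (-0.55, adjusted p = 0.0542) or LKO vehicle replicate 4 (-0.56, adjusted p = 0.054), and with no filter on dim probes (adjusted p = 0.0703). Within slides 1, 2 and 3 it was -0.23, -0.93 and -0.62.

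Under vehicle, 0 of the 9 genes differed between genotypes, where 1.18% of all genes were called (0.403% higher and 0.778% lower), and 0 of the 9 had groups that did not overlap, beside 1.81% of all genes. At an unadjusted p under 0.05 the count in limma was 0 of the 9. Their differences ran from -0.23 (Pfkfb1) to 0.40 (Pfkfb3). Under CL316243, 2 of the 9 were called, where 15.9% of all genes were (7.56% higher and 8.3% lower in LKO). Gys2 was lower in LKO by -0.77 (SE 0.11, adjusted p = 2.95e-05), or 1.71-fold, and the groups did not overlap, as in 6.55% of all genes. It stayed between -0.84 and -0.67 within the slides, and was -0.77 (adjusted p = 0.000131) without both mice numbered 3. Gckr exceeded its LWT level in LKO by 0.35 (SE 0.11, adjusted p = 0.0328). The call was lost without both mice numbered 3 (0.21, adjusted p = 0.171) and without any of 6 single mice (adjusted p 0.0554 to 0.0956). It was also lost with no filter on dim probes (adjusted p = 0.0776) and in the 12 CL316243 mice alone (adjusted p = 0.173). The difference was -0.02 within slide 3. The call was kept with quantile normalization (0.41, adjusted p = 0.00201) and in the authors' values (0.40, adjusted p = 0.00156). Ppp1r3b was 0.41 (adjusted p = 0.157) and passed without both mice numbered 3 (0.49, adjusted p = 0.00678). Pfkfb3 was 1.24 (adjusted p = 0.0883). The inward Pfkfb1 probe was lower in LKO under CL316243 by -0.60 (exact permutation p = 0.0216, two-sided, 0.037 adjusted over 12 tests). Those 12 tests include the second probe of Ppara, the deleted gene, whose small p-values pull that adjusted p down. The inward Pfkfb1 probe was not called by limma over all kept probes (adjusted p = 0.0608), and the brighter probe gave -0.44 (adjusted p = 0.269).

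The other genes of the same steps were read from lists. Of all genes, 38.2% were called in LWT, 40.2% in LKO, 5.4% for the interaction, 1.18% for genotype under vehicle and 15.9% under CL316243. Of 26 other glycolysis genes, all tested, 7 were higher and 4 lower with CL316243 in LWT, and 10 were higher and 5 lower in LKO (medians 0.09 and 0.14). These were 42.3% and 57.7% of the list, and 19.2% were called for genotype under CL316243. Among the largest called were Pfkm, a phosphofructokinase subunit (-1.40 and -1.13), and Slc2a1, the glucose transporter GLUT1 (-1.30 and -1.08). Pfkfb2, another bifunctional enzyme, rose in both (0.62 and 0.98). For the interaction 0 of the 26 were called by limma (1 at an unadjusted p under 0.05). Under vehicle 1 was called, Ldha, a lactate dehydrogenase subunit (-0.29, adjusted p = 0.0398). Under CL316243, 4 were higher and 1 lower in LKO, among them Pfkp (0.67) and Pfkm (0.47).

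Of 28 other glycogen genes, Ppp1r3a and Ppp1r3f did not pass the filter. In LWT 4 of the 26 tested were higher and 7 lower, and in LKO 7 were higher and 7 lower (medians -0.02 and -0.07). These were 42.3% and 53.8% of those tested, beside 38.2% and 40.2% of all genes. For genotype under CL316243, 19.2% were called, beside 15.9%. Ppp1r3g, a further targeting subunit, rose by 4.08 in LWT (SE 0.70, adjusted p = 8.09e-05) and 3.03 in LKO (SE 0.70, adjusted p = 0.00143). It was well above background on 5 of 6 arrays of each vehicle group and on 6 of 6 of each treated group. Its direction was opposite to that of Ppp1r3c and Ppp1r3b. Ppp1r3d, another targeting subunit, named after its values were seen, rose as well (0.58 and 0.97, adjusted p = 0.0183 and 0.000329). Ppp1r3e, likewise named after its values were seen, was -0.11 in LWT (adjusted p = 0.175) and fell by -0.20 in LKO (adjusted p = 0.0165). Phka2, the liver alpha subunit of phosphorylase kinase, fell in both genotypes (-1.10 in LWT and -0.995 in LKO). In LKO, Pgm1, a phosphoglucomutase, rose (1.55) and Pygb, brain-type phosphorylase, fell (-1.45); in LWT they were 0.62 (adjusted p = 0.0632) and -0.45 (adjusted p = 0.47), and neither difference between the effects was called (adjusted p = 0.165 and 0.438). The interaction was called for Phkg2 (0.52) and Pgm2 (-0.51), and under vehicle 0 of the 26 were called by limma (3 at an unadjusted p under 0.05). Under CL316243, 3 were higher and 2 lower in LKO, led by Pgm1 (1.08), Pgm2 (-0.68) and Ugp2 (0.55), which makes UDP-glucose.

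Of 17 regulators, 4 were higher and 4 lower in LWT, and 4 higher and 5 lower in LKO (medians -0.03 and -0.21). These were 47.1% and 52.9% of the list, beside 38.2% and 40.2% of all genes. For genotype under CL316243, 35.3% were called, beside 15.9%. Klf10, a transcription factor that responds to glucose, rose by 2.57 and 2.07. Srebf1, which encodes the insulin-responsive factor SREBP1, fell (-1.96 and -3.22), and the effects differed (-1.25, SE 0.36, adjusted p = 0.0438). Txnip, a glucose-responsive gene, rose by 2.13 in LWT and 0.67 in LKO, with an effect lower in LKO by -1.46 (SE 0.32, adjusted p = 0.00786). Klf15 fell in both genotypes (-1.14 in LWT and -1.38 in LKO). Under CL316243, 1 was higher and 5 lower in LKO, led by Txnip (-1.45), Srebf1 (-1.40) and Klf10 (-0.63).

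**Figure D3:**
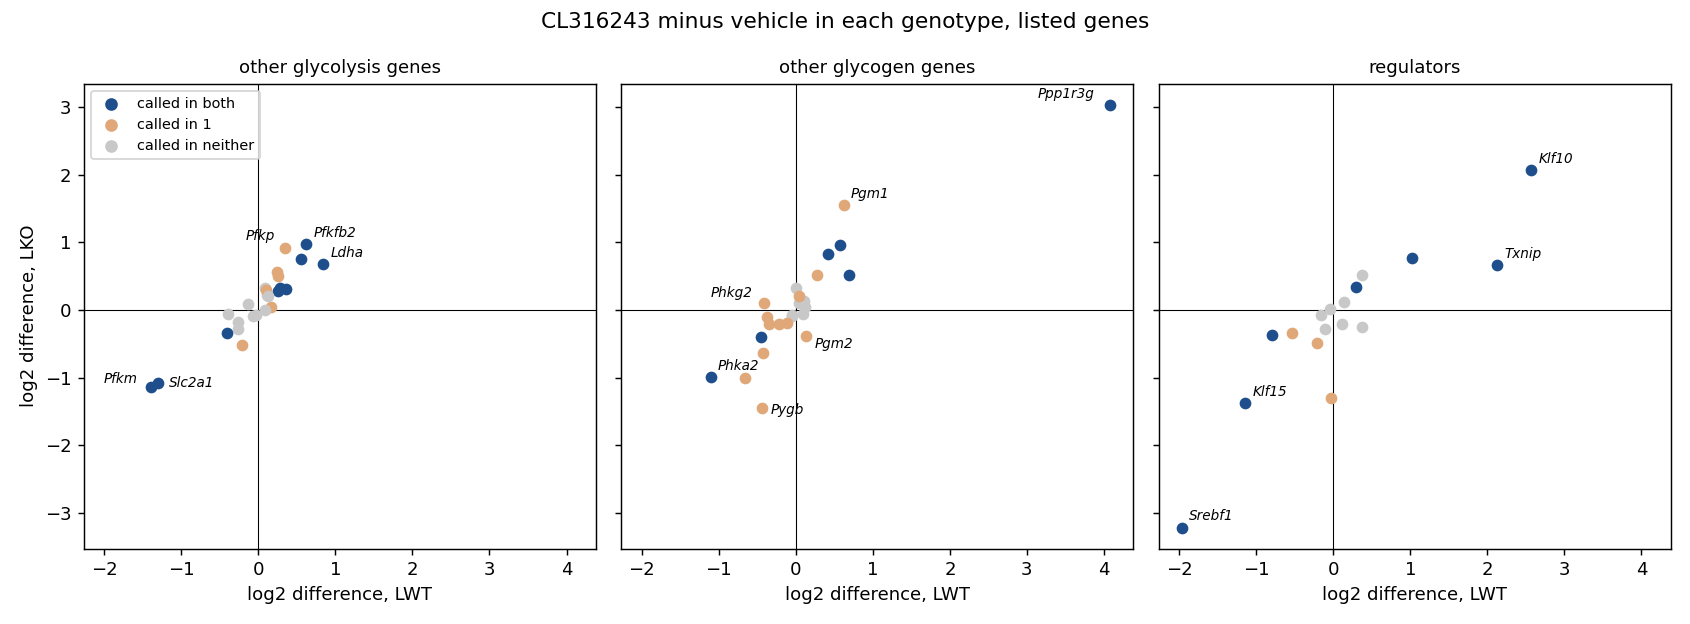
Points are tested genes of 3 lists, placed by the log2 difference between CL316243 and vehicle in LWT (horizontal) and in LKO (vertical), and coloured by whether the difference was called in both, in 1 or in neither genotype. Ppp1r3g lies at the upper right (4.08 and 3.03) and Srebf1 at the lower left (-1.96 and -3.22).

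Genes with the most similar profile were named for each of the 9 by Pearson r over the 24 mice (23 for Gckr) among 13354 genes with symbol names. The mice share groups, so r also carries the group differences, and the value within groups is given after it where named. For Ppp1r3c they were Slc26a1 (0.97, within groups 0.91) and Fam13a (0.97, 0.86), and for Ppp1r3b Usp2 (0.94, 0.86) and Bhmt2 (0.94, 0.89). Slc2a2 was closest to Cryl1 (0.94) and Hexdc (0.93), Pfkfb1 to Tango2 (0.91) and Aagab (0.90), and Pfkfb3 to Csrnp1 (0.85) and Slc12a4 (0.84). Gckr was closest to Arl5b (0.87) and Use1 (0.87), and Gys2 to Timm9 (0.87, within groups 0.47) and Idh1 (0.87, 0.51). Pklr was closest to Hcn3 (0.95, within groups 0.95), its neighbour in the gene table of build GRCm38.p6, and to Tkt (0.87), and Pygl to Dhrs7 (0.86) and Hcn3 (0.85). Among the 9 themselves, the highest r within groups was between Pklr and Pygl (0.84), then Ppp1r3b and Ppp1r3c (0.79), and the lowest was between Pfkfb3 and Ppp1r3c (-0.63).

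Promoter windows of 250 bases before to 50 after each start site were taken from RefSeq (GRCm38.p6) for 7 of the 9 genes, 12 windows in all. Gys2 and Ppp1r3b had no window, so the counts of matches do not cover them. They were searched on both strands for CACGTG, the E-box letters, TGACGTCA, the full cAMP response element, and the exact consensus of the DR1 direct repeat, the kind bound by PPARα. None of the matches overlapped another motif. CACGTG was in 2 of 12 windows, against 7.15% of 32851 windows, and TGACGTCA and DR1 were in 0 of 12, against 1.79% and 0.0396%. The windows with CACGTG were those of Ppp1r3c, starting at -104 from the start site, and of 1 of the Pfkfb3 starts, at -53. These 250 bases upstream are shown because they hold the matches, in the gene with the largest fall and in one of the more variable genes; the capitals mark CACGTG (chr19:36736605-36736854 and chr2:11502091-11502340, both minus strand). A match of letters is a description and not a site.
Ppp1r3c upstream: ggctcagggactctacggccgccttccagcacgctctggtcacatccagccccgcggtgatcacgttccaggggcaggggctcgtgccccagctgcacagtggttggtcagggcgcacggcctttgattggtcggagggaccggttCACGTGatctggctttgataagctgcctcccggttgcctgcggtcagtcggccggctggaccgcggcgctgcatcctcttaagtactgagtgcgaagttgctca
Pfkfb3 upstream: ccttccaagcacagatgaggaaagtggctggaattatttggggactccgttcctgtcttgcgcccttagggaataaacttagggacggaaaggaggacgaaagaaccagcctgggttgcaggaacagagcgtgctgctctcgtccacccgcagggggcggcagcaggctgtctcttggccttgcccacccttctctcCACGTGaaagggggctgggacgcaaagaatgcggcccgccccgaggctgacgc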

How the data were processed

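Liver RNA of 24 mice was measured on 24 arrays. The scanner tables hold spot intensity values, background-subtracted on a linear scale, made by the authors' run of Agilent Feature Extraction, version 10.10.1.1, as stated per the file headers. The series table holds log2 values that the authors deposited after normalization. Tested on the files, 99.3% of them lay within 0.01 of log2 median signals from the scanner after quantile normalization, over 31367 probes. The values were used as an alternative, and every column matched a sample (0 without one). The submitters' processing notes also name limma.

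Each array had 62976 spots, 59305 of them non-control, for 56605 probes. Outlier spots were removed (215 values missing after that), spots of a probe averaged, log2 taken and each array's 75th percentile subtracted. Per array that percentile lay at an intensity of 271.1 to 390.1, and the number of arrays limits the precision. Kept probes were well above background in 4 or more of the 6 mice of some group, with 3 or more values per group (32034 probes), and the brightest kept probe stood for its gene (21330 genes). One mean per group was fitted to 24 arrays with limma 3.58.1 under R 4.3.3 (files read with the data.table package, release 1.17.8), prior df 2.18, residual df 20, with Benjamini-Hochberg adjustment in each of 5 comparisons. The median SE was 0.13, and 0.19 for the interaction. The fit was tested on simulated data. Probes that do not stand for their gene were compared by exact permutation.

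The 9 genes, the glycolysis, glycogen and regulator lists and the lists of markers (hepatocyte, Kupffer, endothelial, stellate, cholangiocyte, adipocyte, muscle, pancreas, blood) were chosen with earlier results of these data known. Named from each list are the 3 called genes with the largest difference per comparison, and for each of the 9 genes the 2 with the highest r. Some genes that this rule picks are not reported here, although the counts over the lists include them. Alternatives were another background correction, quantile normalization, the authors' values, other filters and probe rules, blocks for slide, row and replicate number, single slides, single comparisons, a 1.5-fold minimum and leaving out mice. Replicate numbers were not taken as pairs, since the labels name no pairing. Of the same-numbered pairs, 11 of 36 correlated above 0.1, and 10 of 24 mice were closest to their own number. Between LWT and LKO CL316243 mice the mean r of same-numbered pairs was 0.173, against 0.001 over all pairs. What same-numbered mice share was not tested.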

Additional observations from a re-analysis of the deposited data

Results flagged for a closer look

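Slc2a2 in LKO vehicle replicate 6 was 1.78, while the nearest of the other 5 mice was 2.86, a gap of 0.67 of the group's range. Without that mouse and both CL316243 mice numbered 3, a choice made after seeing the data, every call of the CL316243 effects of the 9 genes kept its side of the threshold.

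Ppp1r3b in LKO CL316243 replicate 3 was 6.02, against 6.97 for the nearest mouse, a gap of 0.64 of the range. These were 2 of 44 groups tested, of 6 mice each except 1 of 5, and chance flags about 1 in 20.

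The CL316243 effect on Gys2 differed between genotypes by -0.60 (LKO minus LWT, limma adjusted p = 0.0285).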

How the results depend on the processing

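The falls of Pfkfb1, Slc2a2 and Ppp1r3c in both genotypes kept direction and call under the alternatives run other than the fits within a slide. So did the fall of Ppp1r3b in LWT and the lower Gys2 in LKO under CL316243. All of these also held without each single mouse. Ppp1r3c was not among the genes well above background on all 24 arrays, so that filter gave no value for it. Fits within a slide had 8 mice. The CL316243 effect was called in LWT for 0, 4 and 4 of the 9 genes within slides 1, 2 and 3, and in LKO for 2, 0 and 2 within slides 1, 2 and 3. The interaction was called for 0 in each slide, and genotype under CL316243 for 0, 2 and 1 within slides 1, 2 and 3. Counts over all genes within a slide are not given here, so these counts cannot be set against them. With no filter on dim probes, the interaction was called for 0 of the 9 (678 genes in all) and genotype under CL316243 for 1. Genotype under CL316243 was called for 1 in the 12 mice alone (2180 genes in all) and for 1 with a 1.5-fold minimum (1632 genes). That minimum left 3804 genes for CL316243 in LWT and 3887 in LKO. Taking every kept probe gave 13090 calls in LKO and 1892 for the interaction, of 32034 probes. The fit by gene gave 8566 and 1152, of 21330 genes. Leaving out single mice gave 0 to 1 calls among the 9 for the interaction (927 to 1525 over all genes). For genotype under CL316243 it gave 1 to 3 (2829 to 3926 over all genes).

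Sign changes within slides touched 1 called result, Gckr under CL316243 (-0.019 within slide 3). The rest were differences not called with all mice. For CL316243 in LWT they were Pfkfb3 (-0.499 within slide 1, -0.276 within slide 3) and Pygl (0.124, slide 1), and in LKO Gckr (0.243, slide 1). For the interaction they were Pygl -0.303, Ppp1r3b -0.29 and Ppp1r3c -3.031 (slide 1), Pfkfb1 0.109, Pfkfb3 -1.613, Pklr -0.203 and Slc2a2 0.144 (slide 2), and Pfkfb1 0.609 (slide 3). For genotype under vehicle they were Pfkfb1 0.169, Pklr -0.177, Slc2a2 -0.403 and Pygl 0.046 (slide 1), Pfkfb1 0.1, Gys2 0.121 and Pygl 0.226 (slide 2), and Gckr -0.023, Pfkfb3 -0.094, Pklr -0.255 and Ppp1r3c 0.267 (slide 3). For genotype under CL316243 they were Pklr -0.142, Pygl -0.257, Ppp1r3b -0.201 and Ppp1r3c -3.054 (slide 1), and Pfkfb1 0.209, Pfkfb3 -0.409 and Slc2a2 0.605 (slide 2). The Ppp1r3c genotype difference was -0.007 under CL316243 with quantile normalization and 0.002 under vehicle in the authors' values.

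Leaving out single mice moved Gckr in LKO from -0.089 to 0.042, Pklr under vehicle from -0.045 to 0.432, and Pygl from -0.134 to 0.031 under vehicle and -0.015 to 0.136 under CL316243. Ppp1r3c ran from -0.473 to 0.609 for the interaction, -0.111 to 0.102 under vehicle and -0.478 to 0.603 under CL316243. The cause was not tested. The replicate number, which the labels do not name as a pairing, was also fitted as a block. Pfkfb3 was then called in LKO (1.19, adjusted p = 0.00684) and between genotypes under CL316243 (1.24, adjusted p = 0.013). Gckr under CL316243 was lost with that block (0.34, adjusted p = 0.0523). Signal near background limits the inward Pfkfb3 probe. Among treated livers, Ppp1r3c was dimmest in the mice numbered 3, at intensities of 33.4 (LWT) and 20.1 (LKO). The group medians were 188 and 310, and only the LKO mouse was not well above background.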
